A study of Drosophila melanogaster with 12 samples.

Results

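The 200 most abundant long non-coding RNAs (lncRNAs) of whole flies were described across control and erythritol-fed *Drosophila melanogaster*. They were chosen from the 2260 genes of the count table whose FlyBase symbol begins with lncRNA: or asRNA: (antisense RNA), leaving out the dosage compensation RNAs roX1 and roX2. For each gene, the share of the library total, as CPM (reads of the gene per 1000000 reads counted), was averaged over all 12 libraries, and the 200 highest means were kept. The table holds 17707 genes in all. Of the 200 members, 177 carry the lncRNA: prefix and 23 the asRNA: prefix. Because the mean level chose the members, levels are given below as a description, with no test.

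RNA was taken from whole bodies, and polyadenylated RNA was sequenced. Control flies kept on normal medium were sampled on day 3 (CK1) and day 4 (CK2), and flies on the same medium with added erythritol, a sugar alcohol that kills flies, on day 3 (T1) and day 4 (T2). Each group holds 3 libraries, each described by the study as a biological replicate of pooled flies that had newly emerged when feeding began. The sources used here name neither strain nor sex. The comparisons ask how the diet changed expression on each day, how expression differed between the days within a diet, and whether the diet effect differed between days.

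Most lncRNAs are transcribed, capped, spliced and polyadenylated like messenger RNAs but encode no known protein, so a poly(A) library captures them. In the fly many are expressed in the testis, and fewer in the nervous system, the ovary or the gut. A few have known roles. Hsromega RNA organises nuclear omega speckles, which hold RNA-binding proteins during stress, and bsAS is antisense to *blistered*, the gene of the fly's serum response factor. Members with only a CR number have no role given here.

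Total counts lay between 19855575 and 23327826 per library. The members' share of a library's counts was 0.181% to 0.333%, out of 0.218% to 0.410% for all lncRNA and asRNA genes. Mitochondrially encoded genes took 7.29% to 16.5%, highest in replicate 3 of T1. Replicate 3 of T1 stood apart from the other T1 libraries. The chi-square of its counts over genes, per degree of freedom, was 59.8 against replicate 1 and 23.6 against replicate 2, and 1.76 to 12.8 for every other pair of replicates. Counts of calls without it are given where they move. Over all genes tested, edgeR's common estimate of the coefficient of variation between libraries of a group, beyond counting error, was 4.06%. The SD over the mean of each member's scaled CPM includes counting error. Its median over the members was 10.8% in CK1, 14.2% in CK2, 17.8% in T1 and 13.4% in T2. These measures differ in kind and do not rank the members against other genes. The p-values below measure only the spread between libraries of a group. All 200 members passed the filter on low counts, the least counted with 371 counts over the 12 libraries. At the threshold, lncRNA:CR44921 (mean 1.47 CPM) and lncRNA:CR44214 (1.47 CPM) were the last inside, and lncRNA:CR44151 (1.44 CPM) and asRNA:CR44047 (1.44 CPM) the nearest outside.

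A single gene dominated the members' counts, and levels dropped quickly after it. Only 4 members had a mean of at least 100 CPM, 31 of at least 10 CPM and 54 of at least 5 CPM, and the median was 2.73 CPM. lncRNA:CR42862 alone took 33.9% to 42.1% of the members' counts in each library. Per kilobase of exon it stayed at the top (170 CPM per kb), followed by lncRNA:CR9284 (163 CPM per kb), whereas Hsromega, with 21710 exonic bases, fell from rank 3 in CPM to rank 42 (7.76 CPM per kb).

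**Figure D1:**
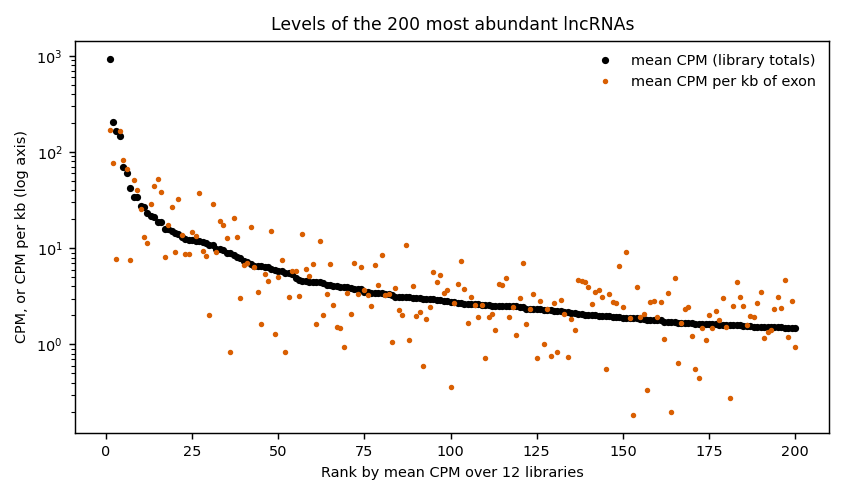
Mean CPM over 12 libraries (black) and mean CPM per kilobase of exon (orange) of the 200 members, ordered by rank in mean CPM, on a log axis. The black points drop from CR42862 to 1.47 CPM at the last rank; orange points scatter around them because exonic lengths range from 214 to 21710 bases.

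From here on CPM uses library sizes scaled by the trimmed mean of M values (TMM), the scale of the tests. Summed over the members, the level was 2977 ± 9.15 CPM in CK1, 1909 ± 36.8 in CK2, 2629 ± 121 in T1 and 2703 ± 33.5 in T2 (SD, n = 3). CK2 was the lowest group and CK1 the highest. Without CR42862 the sums were 1951, 1245, 1556 and 1746 CPM in CK1, CK2, T1 and T2. By group means, 119 members were highest in CK1, 27 in CK2, 28 in T1 and 26 in T2. CK2 was the lowest group for 91 members.

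The members' median change had opposite signs on the 2 days. On day 3 it was a log2 fold change log2 fold change of −0.94 (T1 vs CK1), against −0.05 over all 13179 genes tested. On day 4 it was 0.49 (T2 vs CK2) against −0.02, although of the members past both thresholds given next more were lower than higher on that day too. The other 562 tested lncRNA and asRNA genes had medians of −0.99 and 0.56, close to those of the members.

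A gene was called when edgeR's quasi-likelihood test gave an adjusted p below 0.05 (Benjamini-Hochberg over all genes tested) and the log2 fold change was at least 1.5 in size, the study's own thresholds. On day 3, 8 members were called higher and 36 lower. Over all genes 3.98% were called higher and 8.92% lower in that comparison. The share of members called lower (18.0%) was above the background and the share called higher (4.0%) near it. Members were ranked on a mean that includes the libraries compared. A gene near 0 on erythritol could thus enter through its control level, so these shares and those below are a description. Of the other 562 tested lncRNA and asRNA genes, 4.09% were called higher and 27.0% lower. The members' share of lower calls was thus below that of their own class. On day 4, 13 members were called higher (6.5%) and 22 lower (11.0%), with 3.97% and 7.15% over all genes. The other lncRNA and asRNA genes had 11.4% called higher and 11.4% lower on that day. By adjusted p alone, 31 members were higher and 136 lower on day 3 (37.3% and 42.1% of all genes), and 104 higher and 55 lower on day 4 (38.3% and 41.2%). The calls of higher members moved with 2 choices: scaling by library totals left 4 on day 3, and ranking members on control libraries alone left 2 on day 3 and 6 on day 4.

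T1 vs CK1 and T2 vs CK2 share no library. Of the called members, 19 were lower on both days, 5 were higher on both days, and 0 were called in opposite directions. Over all genes 4.77% were lower on both days and 1.8% higher on both, against 9.5% and 2.5% of the members. Day 3 alone called 17 lower and 3 higher, and day 4 alone called 3 lower and 8 higher. By adjusted p alone, 78 members were lower on day 3 and higher on day 4, against 4 with the reverse pattern, 40 lower on both days and 15 higher on both days. The first pattern held 39.0% of the members and 17.5% of all genes. Of the 13179 genes 1582 had the reverse pattern, 2315 were lower on both days (17.6%, near the members' share) and 2325 were higher on both. The diet-by-day difference, the effect on day 4 minus that on day 3, passed the adjusted p threshold for 152 of the 200 members, 124 of them positive and 28 negative. Over all genes 78.9% passed, 31.1% positive and 47.8% negative, so the members passed at a rate near the background but leaned to the positive side. The other lncRNA and asRNA genes leaned the same way, with 50.5% positive and 3.38% negative.

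**Figure D2:**
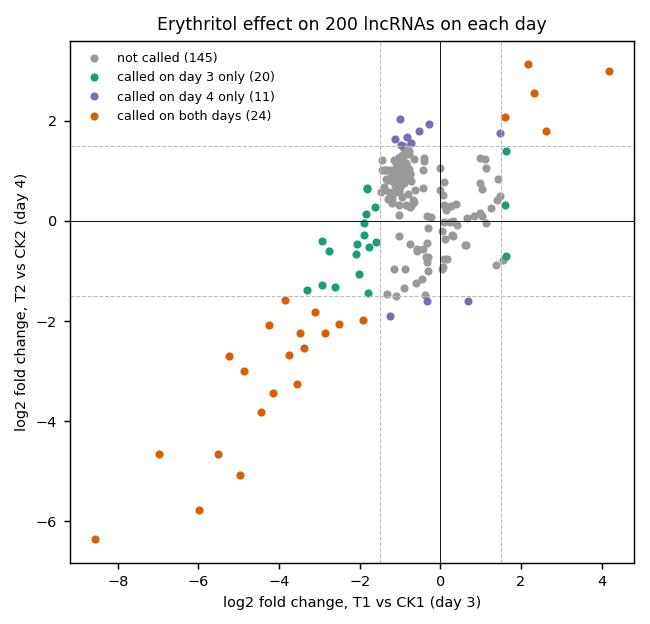
Log2 fold change of each of the 200 members on erythritol on day 3 (T1 vs CK1, x axis) and day 4 (T2 vs CK2, y axis), coloured by call; dashed lines mark a log2 fold change of 1.5 in size. The 19 members lower on both days run to the lower left, 5 lie at the upper right, and a dense cloud sits left of 0 on day 3 and above 0 on day 4.

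The dense cloud in the plot of the 2 days was led by some of the most abundant members. Their level was high in CK1 and T2 and low in CK2 and T1. Values of the 3 libraries are given in replicate order from here on. lncRNA:CR9284 (FBgn0046297; 2R:21803402-21804338, plus strand, release 6 of the genome; 889 exonic bases) had 193, 194 and 200.4 CPM in CK1, 80.3, 84.1 and 82.5 in CK2, 99.7, 103 and 108 in T1, and 198.4, 195 and 203.6 in T2. CK1 and T2 overlapped, and every library of both lay above every library of CK2 and T1. It changed by −0.92 on the log2 scale (SE 0.0375, adjusted p = 2.88e-17) on day 3 and 1.27 (SE 0.0383, adjusted p = 4.64e-20) on day 4 in edgeR's quasi-likelihood test.

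Several X-linked members shared this order. lncRNA:CR32658 (FBgn0040859; X:12091264-12092272, plus strand) had 97.8, 97.2 and 101 CPM in CK1, 38.2, 40.2 and 37.6 in CK2, 42.5, 47.0 and 52.1 in T1, and 84.9, 91.1 and 91.7 in T2. No library of CK1 or T2 overlapped one of CK2 or T1. Its log2 fold change was −1.07 (SE 0.0531) on day 3 and 1.21 (SE 0.055) on day 4 (edgeR, adjusted p = 1.83e-15 and 2.58e-16). The gene lies within the span of *Ten-a*, a teneurin of synapse formation, with no exon base in common. *Ten-a* fell by 0.67 on day 3 and by 0.35 on day 4 on the log2 scale (adjusted p = 7.71e-11 and 1.4e-05, edgeR), so host and member went in opposite directions on day 4.

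lncRNA:CR32652 (X:12411018-12412181, minus strand) averaged 88.4 ± 1.99 CPM in CK1, 34.3 ± 0.44 in CK2, 42.4 ± 4.91 in T1 and 72.3 ± 4.04 in T2 (SD, n = 3). lncRNA:CR32661 (X:11917806-11918678, minus strand) averaged 48.1 ± 0.752, 18.4 ± 1.55, 26.6 ± 2.40 and 41.1 ± 1.21 CPM. Together with CR32658, CR32657 and CR43157, these genes are 5 members within 494 kb of the X chromosome. lncRNA:CR32690, also on the X (10204400-10205289, plus strand), averaged 47.6 ± 0.295 CPM in CK1, 19.4 ± 1.11 in CK2, 24.7 ± 2.47 in T1 and 41.3 ± 1.69 in T2. On day 3 their log2 fold changes were −1.06 for CR32652, −0.85 for CR32661 and −0.95 for CR32690, and on day 4 1.07, 1.16 and 1.09, all past the adjusted p threshold and short of the fold threshold.

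lncRNA:CR42850 (2L:5379095-5381074, minus strand, 1980 exonic bases in 1 block) had 42.7, 42.6 and 40.0 CPM in CK1, 15.7, 13.8 and 14.4 in CK2, 16.8, 15.9 and 17.7 in T1, and 28.7, 28.8 and 32.0 in T2. Here T2 stayed below CK1 with no overlap. Its log2 fold change was −1.32 (SE 0.063) on day 3 and 1.03 (SE 0.0673) on day 4 (edgeR, adjusted p = 8.01e-16 and 4.22e-13). asRNA:CR44370 (2R:15226938-15232665, plus strand), which shares 249 exonic bases with *Fs*, the gene of the activin-binding protein follistatin on the other strand, rose less on day 4. It averaged 74.6 ± 2.46 CPM in CK1, 25.7 ± 0.651 in CK2, 30.4 ± 5.37 in T1 and 34.7 ± 1.22 in T2, with log2 fold changes of −1.29 and 0.43. *Fs* itself was higher on erythritol on both days, by 0.82 and 0.86 (adjusted p = 1.69e-07 and 2.83e-08, edgeR).

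The smallest adjusted p-values of the diet-by-day difference among the members belonged to CR9284 (difference 2.19, SE 0.0536, adjusted p = 2.49e-21), CR32658 (2.27, SE 0.0765, adjusted p = 1.06e-18) and CR32652 (2.13, SE 0.0827, adjusted p = 1.87e-17). Over the 78 members that were lower on day 3 and higher on day 4 by adjusted p alone, the summed level was 1020 CPM in CK1, 432 in CK2, 500.1 in T1 and 874 in T2. Of these 78, 13 lie on the X chromosome. Among all members 33 lie there (16.5%), so the share on the X was close to that of the members as a whole.

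Markers of male germ cells followed the same order. The testis and sperm list of 30 genes, among them the sperm tail genes *dj* and *Mst87F* and the testis tubulin *betaTub85D*, summed to 6537 ± 33.5 CPM in CK1, 2652 ± 19.3 in CK2, 3284 ± 75.7 in T1 and 6748 ± 29.9 in T2. By adjusted p alone 29 of 29 tested were lower on day 3 and 26 were higher on day 4, with median log2 fold changes of −1.04 and 1.11. At most 1 of the 30 was at 0 in any group. The part of these markers in the members' changes was not tested. In whole-body RNA, a different number of cells of a type, a different share of males among the pooled flies and a different amount of RNA per cell cannot be told apart.

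The 12 most abundant members held other orders too. lncRNA:CR42862 (FBgn0262109; 3L:224106-230964, plus strand, 5485 exonic bases in 3 blocks) had 1014, 1032 and 1032 CPM in CK1, 671, 667 and 656 in CK2, 1066, 1069 and 1085 in T1, and 971, 948 and 953 in T2. CK2 stood apart below the other 3 groups. The log2 fold change was 0.06 (SE 0.0365, adjusted p = 0.107) on day 3, where its sign turned under other scalings, and 0.53 (SE 0.0368, adjusted p = 1.57e-12) on day 4 in edgeR. Its exons share 246 bases on the same strand with those of CG33229, which changed by 0.42 on day 3 and by −0.21 on day 4 (edgeR, adjusted p = 4.15e-08 and 0.000457).

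**Figure D3:**
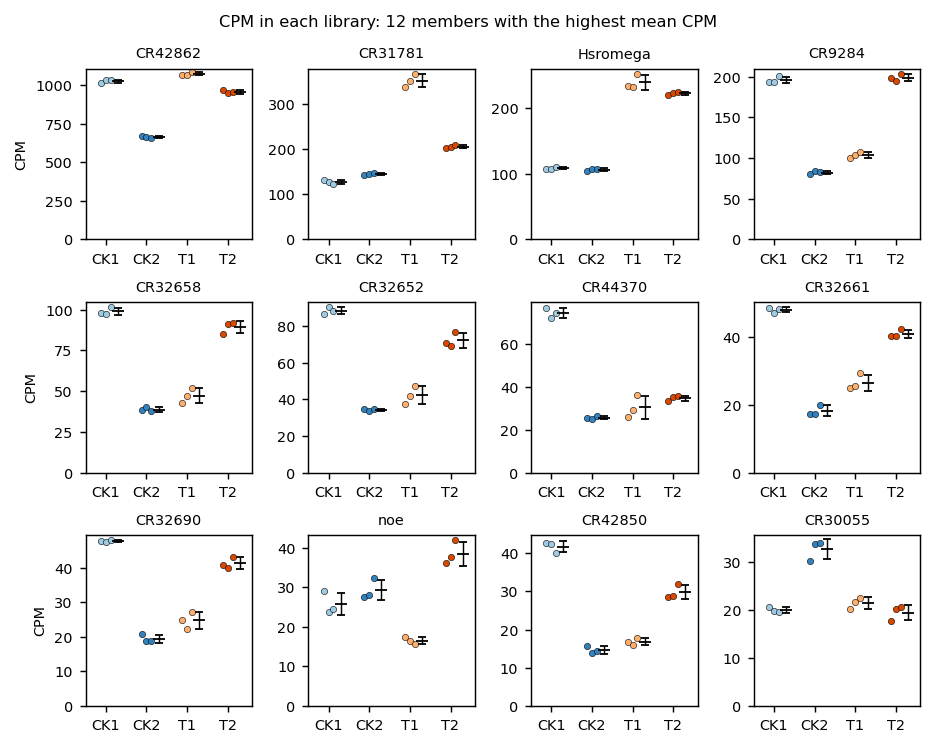
CPM (TMM-scaled) in each library of the 12 members with the highest mean CPM; points are libraries, and the bar beside them is the mean ± SD of 3 libraries. CR9284, CR32658, CR32652, CR32661, CR32690 and CR42850 are high in CK1 and T2, Hsromega and CR31781 are high in T1 and T2, and CR30055 is high in CK2.

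Hsromega and CR31781 were higher on erythritol on both days. Hsromega (FBgn0001234; 3R:21296127-21317836, plus strand), the heat shock RNA omega, had 107, 108 and 110.3 CPM in CK1, 104, 107 and 107 in CK2, 232, 232 and 251 in T1, and 219.7, 222 and 223 in T2. The lowest erythritol library (219.7 CPM) lay far above the highest control library (110.3 CPM). Its rise was 1.14 on the log2 scale (SE 0.0375, adjusted p = 3.41e-19) on day 3 and 1.06 (SE 0.0379, adjusted p = 1.55e-18) on day 4, and the diet-by-day difference of −0.07 (SE 0.0531) did not pass the test (adjusted p = 0.209, edgeR).

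lncRNA:CR31781 (FBgn0051781; 2L:16869346-16878300, plus strand, 2679 exonic bases) had 131, 127 and 123 CPM in CK1, 144, 146 and 146 in CK2, 338, 352 and 366 in T1, and 203.9, 205 and 209 in T2. No groups overlapped, and T1 was the highest. It rose by 1.47 on the log2 scale (SE 0.0376, adjusted p = 1.43e-21) on day 3, just short of the fold threshold, and 0.50 (SE 0.0377, adjusted p = 6.09e-12) on day 4. The difference between days was −0.97 (SE 0.053, adjusted p = 2.25e-14, edgeR).

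Across the 15 members higher on both days by adjusted p alone, the summed level was 267 CPM in CK1, 283 in CK2, 694 in T1 and 525 in T2. The 5 of them that also passed the fold threshold on both days were CR44138, CR45517, CR45813, CR45908 and CR44299. All but CR44138 had control means below 1.47 CPM, the level of the last member. They entered only through their erythritol level, which is therefore no finding, and their rises are given as a description. On day 3 the largest rise was in lncRNA:CR44138 (FBgn0264987; 3R:13376903-13377395, plus strand, 493 exonic bases in 1 block), with 2.26, 2.21 and 2.04 CPM in CK1, 5.17, 4.66 and 5.27 in CK2, 38.9, 37.3 and 42.1 in T1, and 40.3, 40.2 and 40.7 in T2. All control libraries were far below all erythritol libraries. It rose by 4.18 on the log2 scale (SE 0.0864, adjusted p = 1.78e-23) on day 3 and 3.00 (SE 0.0749, adjusted p = 1.05e-21) on day 4 (edgeR), when CR45908 rose more. It lies within the span of CG9813 on the other strand without a shared exon base, and CG9813 moved by −0.32 on day 3 and 0.59 on day 4 (edgeR, adjusted p = 7.74e-08 and 9.69e-13).

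lncRNA:CR45517 (X:5428483-5429256, plus strand), with no gene overlapping it, had 1.21, 0.738 and 1.42 CPM in CK1, 0.497, 0.608 and 1.34 in CK2, 3.86, 6.39 and 6.65 in T1, and 4.82, 5.55 and 4.48 in T2. Control and erythritol libraries did not overlap, and log2 fold changes were 2.32 (SE 0.255) on day 3 and 2.55 (SE 0.281) on day 4 (3.15 without replicate 3 of CK2). lncRNA:CR44299 (2R:10782895-10785597, plus strand) averaged 0.434 ± 0.225 CPM in CK1, 0.796 ± 0.225 in CK2, 2.70 ± 0.310 in T1 and 2.77 ± 0.432 in T2, rising by 2.62 and 1.796 on the log2 scale (adjusted p = 1.45e-08 and 1.21e-06, edgeR). It lies opposite CG33144 without a shared exon base. CG33144 had log2 fold changes of 0.23 and 0.63.

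The other members higher on both days were antisense to genes of lipid or unknown function. asRNA:CR45813 (3L:1549448-1549900, minus strand) shares 21 exonic bases with *Pcyt1*, which encodes the rate-limiting enzyme of phosphatidylcholine synthesis. It had 1.34, 0.738 and 1.20 CPM in CK1, 0.845, 0.709 and 0.778 in CK2, 3.66, 2.88 and 3.40 in T1, and 3.28, 3.53 and 3.13 in T2, again without overlap between diets. Its log2 fold change was 1.59 (SE 0.213) on day 3, a call lost without replicate 2 of CK1 (1.38), and 2.08 (SE 0.232) on day 4. *Pcyt1* rose beside it by 2.60 and 1.95 on the log2 scale, from 142 CPM in CK1 to 861 in T1 and from 172 in CK2 to 662 in T2.

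asRNA:CR45908 (3R:7074776-7075487, minus strand) shares exonic bases with CG1943 on the other strand. It averaged 0.662 ± 0.235 CPM in CK1, 0.433 ± 0.0783 in CK2, 3.01 ± 0.299 in T1 and 3.79 ± 0.561 in T2, and rose by 2.17 and 3.13 on the log2 scale (adjusted p = 1.83e-08 and 8e-11, edgeR). CG1943 rose by 1.20 and 0.48. Further antisense members, chosen after their values were seen, also lay opposite genes that rose, but not all of them rose too. asRNA:CR45210, opposite the lysophospholipid acyltransferase gene *nes* with 263 shared exonic bases, had log2 fold changes of 1.49 and 1.76, and *nes* of 1.10 and 0.86. asRNA:CR44512, opposite *Zw* (glucose-6-phosphate dehydrogenase, the entry enzyme of the pentose phosphate pathway) with 369 shared bases, had 1.63 and 1.40, and *Zw* 1.36 and 1.20. CR45210 and CR44512 also became members only through their erythritol level. By contrast, asRNA:CR45192, with 259 bases shared with CG1208, had −0.36 and −0.72, and CG1208 3.75 and 3.43. asRNA:CR44429, opposite *gce*, had 0.09 and 0.31, and *gce* 1.22 and 0.71. Where exons are shared, and since no source used here states whether counting used strand, reads of member and partner cannot be told apart.

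Over the 36 members that share exon bases with a tested protein-coding gene, member and partner had the same sign on day 3 in 22 pairs and on day 4 in 19. Pearson's r across these pairs was 0.409 on day 3 and 0.156 on day 4, and Spearman's rho 0.552 and 0.307. Over the 48 members that lie within or across a tested coding gene without sharing an exon base, r was −0.061 and 0.164. These pairs come from the same libraries and are given as a description. Of the 23 asRNA members, 3 were called higher on day 3 and 4 on day 4, and 0 lower on either day, beside 3.98% and 3.97% of all genes higher and 8.92% and 7.15% lower. All 3 on day 3 (CR45813, CR45908 and CR44512) became members only through their erythritol level. So did CR45813, CR45908 and CR45210 on day 4, where CR43948 was also called. The counts of higher asRNA members are therefore a description and no finding. The difference of the asRNA members from the other members was not tested.

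The members with the largest falls were nearly undetected on erythritol and were higher in CK1 than in CK2. Since members were kept on their mean over all 12 libraries, such a member entered only through its control level, which is therefore no finding. lncRNA:CR43239 (FBgn0265270; 2L:17353730-17354668, minus strand, 874 exonic bases) had 36.4, 32.3 and 36.1 CPM in CK1, 11.5, 12.5 and 14.2 in CK2, 0.351, 0.625 and 0.660 in T1, and 0.234, 0.151 and 0.289 in T2. Groups did not overlap. Erythritol changed it by −5.99 on the log2 scale (SE 0.147, adjusted p = 5.97e-22) on day 3 and −5.78 (SE 0.207, adjusted p = 1.74e-18) on day 4, and the diet-by-day difference of 0.20 (SE 0.533) did not pass the test (adjusted p = 0.736, edgeR).

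lncRNA:CR43358 (FBgn0263090; 2L:18293733-18294056, minus strand, 271 exonic bases) had 8.07, 7.73 and 9.51 CPM in CK1, 2.69, 3.29 and 3.33 in CK2, 0, 0 and 0.0507 in T1, and 0, 0.101 and 0 in T2. This is 585 counts in CK1 against 1 in T1, 509.6-fold lower (95% counting interval 91.1 to 20162), and on day 4 only 2 counts in T2, 96.4-fold lower than in CK2 (26.3 to 801). lncRNA:CR43404 (2L:9364297-9364991, plus strand) fell from 486 counts in CK1 to 3 in T1, 141-fold lower (48.0 to 687). On day 4 its log2 fold change was −4.65 (SE 0.344, adjusted p = 4.7e-12, edgeR), from a mean of 2.99 ± 0.462 CPM in CK2 to 0.113 ± 0.0243 in T2. Intervals on counts cover counting error only.

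lncRNA:CR43752 (2L:8295158-8295666, plus strand), within the span of the kinase gene *Btk* on the other strand, averaged 5.40 ± 0.245 CPM in CK1, 1.83 ± 0.507 in CK2 and 0.164 ± 0.101 in T1. In T2 it had 3 counts against 116 in CK2, 38.0-fold lower (95% counting interval 12.7 to 187). *Btk* had log2 fold changes of 0.06 (adjusted p = 0.227, edgeR) on day 3 and −0.65 on day 4. lncRNA:CR43888 (3L:21735866-21736201, plus strand) averaged 4.07 ± 0.445, 1.76 ± 0.156, 0.0819 ± 0.0741 and 0.0645 ± 0.0276 CPM in CK1, CK2, T1 and T2, with log2 fold changes of −5.53 (−6.17 without replicate 2 of T1) and −4.65. lncRNA:CR45231 (2R:19784294-19789736, plus strand) fell by 5.24 on day 3 and by 2.69 on day 4, from 3.97 ± 0.728 CPM in CK1 to 0.1004 ± 0.132 in T1 and from 1.70 ± 0.112 in CK2 to 0.256 ± 0.210 in T2. These values rest on single libraries, with −7.02 on day 3 without replicate 1 of T1 and −3.47 on day 4 without replicate 1 of T2.

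**Figure D4:**
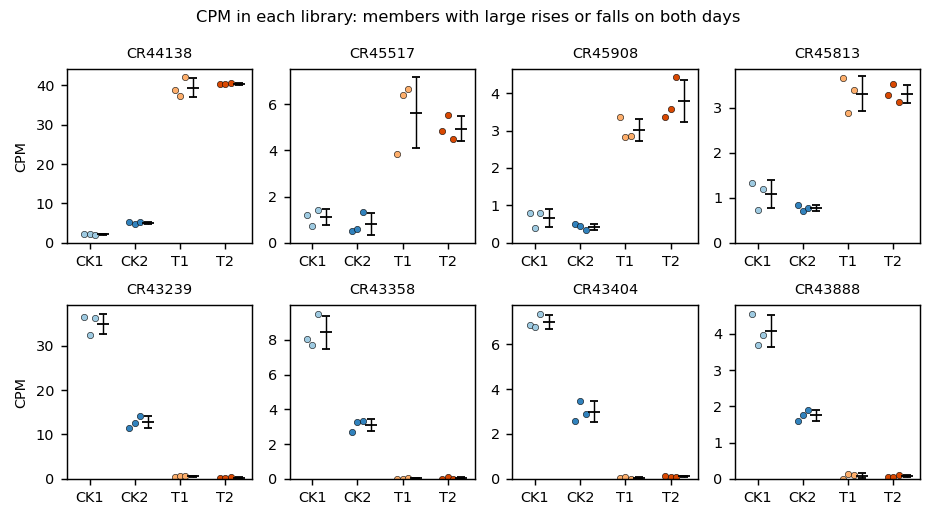
CPM (TMM-scaled) in each library of 4 members higher on both days (upper panels) and 4 members lower on both days (lower panels); points are libraries, and the bar beside them is the mean ± SD of 3 libraries. Control and erythritol libraries do not overlap in any of the 8 panels, and CR43358 reaches 0 in 4 erythritol libraries.

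The 19 members lower on both days summed to 230 CPM in CK1, 104 in CK2, 19.2 in T1 and 16.2 in T2. All 19 carry the lncRNA: prefix, 0 lie on the X chromosome, and their median exonic length was 501 bases against 922.5 over all members. Some are neighbours. CR43146, CR43913 and CR43912 lie within a few kilobases of each other on 3L (13282393 to 13291770), and CR43633 and CR43634 lie 427 bases apart on 3R. lncRNA:CR43146 (13282393-13283410, plus strand) had 8.74, 9.38 and 9.20 CPM in CK1, 2.88, 2.53 and 2.98 in CK2, 0.250, 0.433 and 0.558 in T1, and 0.422, 0.0504 and 0.0963 in T2.

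Lists of other tissues followed this order in part. The male accessory gland list, which holds seminal fluid genes such as *SP* and *Acp26Aa*, summed over 13 genes to 2390 ± 40.1 CPM in CK1, 948 ± 10.8 in CK2, 161 ± 16.7 in T1 and 186 ± 9.09 in T2, and 12 of 13 were called lower on day 3 and 10 on day 4. A list of 48 Tweedle and Osiris genes, families of cuticle and epidermal proteins, was added after values were seen. It summed to 393 ± 3.19, 177 ± 6.05, 15.5 ± 0.960 and 19.3 ± 0.923 CPM. Of its 30 tested genes, 27 were called lower on day 3 and 24 on day 4. These counts are no finding, since the list was chosen with its values known. Genes of the list near 0 on erythritol also passed the filter on low counts only through the controls. None of the 13 accessory gland genes was at 0 in any group, whereas 9 Tweedle and Osiris genes were at 0 in T1 and 11 in T2, against 2 in CK1 and 4 in CK2. The part of either list in the members' falls was not tested.

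**Figure D5:**
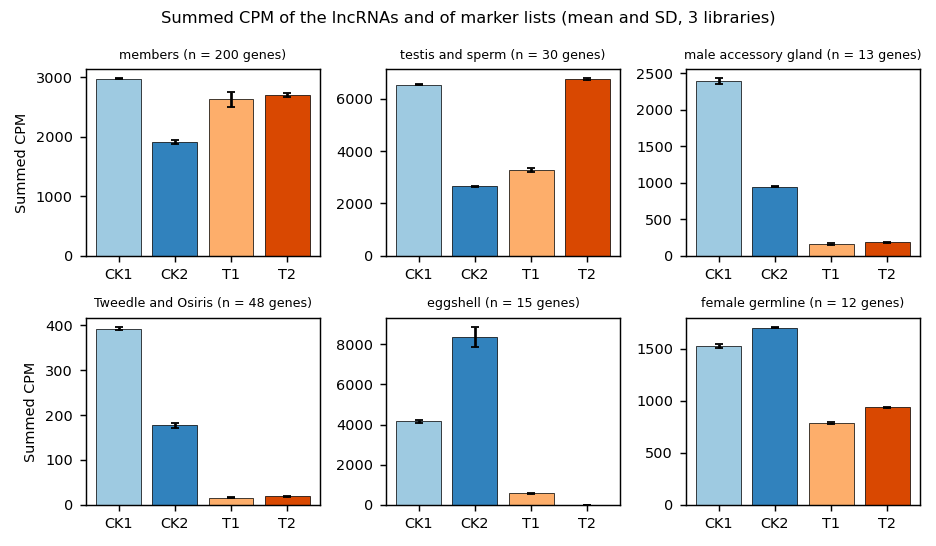
Summed CPM (TMM-scaled) of the 200 members and of 5 marker lists in each group; bars are means and error bars SDs of 3 libraries, and each y axis starts at 0 with its own scale. The testis list is high in CK1 and T2. The accessory gland and the Tweedle and Osiris lists are highest in CK1, and higher in CK2 than in T1 and T2. The eggshell list is highest in CK2 and 6.53 CPM in T2.

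A smaller set of 27 members was highest in CK2. lncRNA:CR30055 (2R:12589239-12591395, plus strand) lies opposite the corepressor gene *Sin3A* without a shared exon base and had 20.7, 19.8 and 19.6 CPM in CK1, 30.3, 33.7 and 34.1 in CK2, 20.1, 21.7 and 22.5 in T1, and 17.7, 20.1 and 20.5 in T2. CK2 alone stood apart. Its log2 fold change was 0.10 (SE 0.0696, adjusted p = 0.191) on day 3 and −0.75 (SE 0.0668, adjusted p = 1.73e-10) on day 4 (edgeR). *Sin3A* moved the same way on day 4, by −0.30.

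lncRNA:dntRL (2R:4621118-4622481, minus strand) had 7.74, 6.73 and 7.42 CPM in CK1, 11.7, 10.6 and 12.6 in CK2, 3.41, 3.12 and 2.64 in T1, and 2.95, 2.67 and 3.76 in T2. Both control groups lay above both erythritol groups, with log2 fold changes of −1.25 (SE 0.140, adjusted p = 1.3e-08) on day 3 and −1.90 (SE 0.132, adjusted p = 1.37e-12) on day 4 (edgeR). It was called on day 4 only, as were CR43452 (−1.60) and CR33942 (−1.60), which are named because the count is small. The last 2 calls were lost without T1 replicate 3 (−1.49 and −1.49) and without T2 replicate 1 (−1.40, CR43452), T2 replicate 2 (−1.43, CR33942) or CK2 replicate 1 (−1.48, CR33942). Markers of the ovary were also highest in CK2, where the 15 eggshell genes summed to 8370 ± 490.4 CPM, against 4166 ± 66.1 in CK1, 581 ± 22.3 in T1 and 6.53 ± 0.392 in T2. The 12 female germline genes summed to 1529, 1701, 784 and 936 CPM in CK1, CK2, T1 and T2. Their part in the members' changes was not tested.

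Of the members, 3 (1.5%) were called higher on day 3 only and 8 (4.0%) on day 4 only, with 2.09% and 2.06% over all genes. On day 3 these were CR44754, CR44512 and CR44651, and the call of CR44512 was lost without replicate 2 of CK1 (1.40). lncRNA:CR44651 (2R:20531867-20532969, plus strand) had 0.669, 1.13 and 0.533 CPM in CK1, 1.24, 2.08 and 2.25 in CK2, 1.90, 2.02 and 3.40 in T1, and 0.843, 1.46 and 1.16 in T2. The log2 fold change was 1.64 (SE 0.311, adjusted p = 3.94e-05, edgeR) on day 3 and fell below the threshold without replicate 3 of T1 (1.38) or of CK1 (1.44), while on day 4 it was −0.70 (SE 0.307, adjusted p = 0.0409). lncRNA:CR44754 averaged 3.81 ± 0.425, 4.08 ± 0.489, 11.5 ± 0.990 and 5.05 ± 0.873 CPM in CK1, CK2, T1 and T2 (log2 fold changes 1.60 and 0.32).

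Of the 8 on day 4, CR45234 lost its call without replicate 1 of CK2 (1.41). CR40465 lost its call without replicate 2 of CK2 (1.35), replicate 1 of T2 (1.46) or replicate 2 of T2 (1.30). Another of the 8, lncRNA:CR43453 (3R:21465701-21466492, plus strand), was highest in T2. It had 2.38, 2.87 and 2.27 CPM in CK1, 1.09, 1.01 and 1.34 in CK2, 1.40, 1.25 and 1.12 in T1, and 4.87, 4.84 and 4.62 in T2. T2 lay above all other libraries. The log2 fold change was −0.99 (SE 0.204) on day 3 and 2.04 (SE 0.189, adjusted p = 3.71e-10) on day 4, with a difference of 3.03 (SE 0.279, adjusted p = 4.75e-10, edgeR).

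Between days in control flies, 2 members were called higher in CK2 than in CK1 (1.0%) and 15 lower (7.5%). Over all genes 1.56% and 4.07% were called higher and lower, and over the other lncRNA and asRNA genes 1.07% and 18.9%. By adjusted p alone 30 were higher and 135 lower (47.2% and 35.1% of all genes), and the median log2 fold change was −1.05 against 0.12 over all genes. The count of members called lower rose to 26 without replicate 3 of T1, which shares in the estimate of scale and spread, to 27 with only these groups fitted, to 36 under upper-quartile factors and to 42 under library totals. CR32368 and CR40469 were the members called higher. lncRNA:CR32368 (3L:7915437-7915846, plus strand) had 2.51, 2.52 and 1.91 CPM in CK1 and 9.30, 10.7 and 11.4 in CK2, without overlap, and 6.41, 5.29 and 6.39 in T1 and 5.90, 6.15 and 5.11 in T2. Its log2 fold change from CK1 to CK2 was 2.18 (SE 0.139, adjusted p = 4.48e-13, edgeR). lncRNA:CR40469, named because the count is small, varied widely between replicates, with 0.167, 1.26 and 0.133 CPM in CK1 and 4.87, 5.27 and 0.778 in CK2, which overlap; its call (2.76, SE 0.810, adjusted p = 0.00319; 4.51 without replicate 2 of CK1) was not made by DESeq2 (adjusted p = 0.0973).

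The 5 largest falls from CK1 to CK2 without overlap were in CR45234 (−1.83, SE 0.236), CR40465 (−1.75, SE 0.279), CR43146 (−1.70, SE 0.165), CR46108 (−1.70, SE 0.233) and CR44324 (−1.67, SE 0.237). lncRNA:CR45234 (3L:18196172-18196932) averaged 2.84 ± 0.401 CPM in CK1, 0.782 ± 0.271 in CK2, 1.29 ± 0.050 in T1 and 2.49 ± 0.0848 in T2. All but CR43146 were again higher in T2 than in CK2. CR46108 shares 35 exonic bases with CG15506. From CK1 to CK2, CG15506 fell by 1.29 on the log2 scale (adjusted p = 1.33e-06, edgeR), and from CK1 to T1 by 1.38. CR44324 shares 20 exonic bases with the receptor gene *Ir94g*, which had no count in any library.

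Between days on erythritol, CR43453 was the only member called, higher in T2 than in T1 (log2 fold change 1.92, SE 0.188, adjusted p = 3.18e-09, edgeR), and 0 were called lower, against 0.653% and 0.744% of all genes. Without replicate 3 of T2, 3 members were called higher, 2 without replicate 1 or replicate 2 of T1, and 1 was called lower without replicate 1 of T2. By adjusted p alone 83 members were higher and 20 lower in T2 (26.3% and 26.8% of all genes). CK2 vs CK1 and T2 vs T1 share no library. By adjusted p alone, 80 members fell from day 3 to day 4 in controls and rose on erythritol (40.0%, against 19.1% of all genes), and 6 fell in both (3.0% against 5.03%).

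Members with a name of their own behaved differently from each other. lncRNA:noe (3L:17400272-17401348, minus strand), a nervous system transcript within the span of the transporter gene *blot*, had 29.0, 23.8 and 24.5 CPM in CK1, 27.6, 28.1 and 32.3 in CK2, 17.3, 16.4 and 15.6 in T1, and 36.0, 37.6 and 41.9 in T2. T1 was the lowest and T2 the highest, with no overlap of either with another group. Log2 fold changes were −0.65 (SE 0.0832, adjusted p = 1.34e-07) on day 3 and 0.39 (SE 0.0732, adjusted p = 3.45e-05) on day 4, while *blot* fell by 0.17 and by 0.87 (edgeR). The 11 neuron marker genes summed to 535 CPM in CK1, 322 in CK2, 324 in T1 and 345 in T2, an order that differs from that of noe.

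lncRNA:cherub (3R:11247631-11256123, minus strand, 8398 exonic bases), known from neural stem cells, had 2.89, 3.17 and 2.67 CPM in CK1, 1.79, 1.16 and 1.21 in CK2, 0.601, 0.769 and 1.07 in T1, and 1.41, 1.41 and 1.78 in T2. CK1 stood above and T1 below the rest. The log2 fold change was −1.84 (SE 0.244, adjusted p = 2.35e-07) on day 3 and 0.15 (SE 0.247, adjusted p = 0.586) on day 4 (edgeR). asRNA:bsAS (2R:24351477-24369689, minus strand) averaged 2.27 ± 0.623 CPM in CK1, 2.72 ± 0.516 in CK2, 4.07 ± 1.12 in T1 and 2.94 ± 0.141 in T2. It was higher on day 3 (0.84, SE 0.210, adjusted p = 0.000826), and its value on day 4 was 0.11 (SE 0.217, adjusted p = 0.653). *blistered* itself had log2 fold changes of 0.25 and −0.52.

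lncRNA:mimi averaged 18.6 ± 1.15 CPM in CK1, 11.6 ± 0.233 in CK2, 14.9 ± 2.15 in T1 and 12.4 ± 1.11 in T2, a change of −0.32 on day 3 (edgeR, adjusted p = 0.0018) and 0.10 on day 4 (adjusted p = 0.348). lncRNA:marge averaged 2.77 ± 0.309, 2.82 ± 0.239, 2.21 ± 0.166 and 2.09 ± 0.175 CPM, with −0.32 (adjusted p = 0.103) and −0.43 (adjusted p = 0.0333). Of the well-known lncRNAs outside the 200, iab8 of the bithorax complex (rank 236) and let7C, a microRNA host (rank 538), were tested. iab8 changed by −0.50 on day 3 (edgeR, adjusted p = 0.118) and 0.80 on day 4 (adjusted p = 0.037), and let7C by 0.49 (adjusted p = 0.22) and 0.51 (adjusted p = 0.212).

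By position, 47 members lie on 3R, 42 on 3L, 38 on 2R, 36 on 2L, 33 on the X and 4 on chromosome 4, in the Ensembl annotation of the release 6 assembly. Of the 33 X-linked members 1 was called lower on day 3 and 0 on day 4, against 35 and 22 of the 167 autosomal members, where 8.92% and 7.15% of all genes were called lower. The difference between X and autosomes was not tested. The median exonic length was 922.5 bases, against 644.5 over the 1834 other lncRNA and asRNA genes with a count, and 110 members (55.0%) had a single exon block, against 65.2%. No other gene overlaps 94 of the members. Among those, 3 were called higher and 20 lower on day 3, and 5 higher and 15 lower on day 4, with medians of −1.03 and 0.49.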

How the data were processed

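Counts per gene were deposited by the authors as 1 table of 12 count columns. Per the study's methods, reads were filtered and aligned with HISAT2 to the release 6 fly genome; the labels also name CASAVA 1.8. How reads were counted per gene, and whether by strand, is not given in the sources used here. Symbols came from Ensembl and FlyBase tables; 17252 of 17558 FlyBase identifiers matched and 306 did not. Members and lists were chosen with earlier results of these data known.

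The deposited counts were tested with edgeR 4.0.16 (filterByExpr, TMM, glmQLFit and glmQLFTest) in R 4.3.3, in 1 fit of 4 groups and 12 libraries, over 13179 genes, with Benjamini-Hochberg adjustment. A call needed an adjusted p under 0.05 and a log2 fold change of at least 1.5 in size; the diet-by-day difference needed the adjusted p alone. No block was fitted. Since 3 against 3 libraries allow no exact permutation p below 0.1, none is quoted. Folds against a group of 1 to 3 counts are ratios with 95% exact binomial intervals. Tested on simulated counts, the fit called all seeded log2 changes of 2 and 3. Every simulated gene had the same spread of 4.06%, and no library stood apart. How well changes of the members are called cannot be read from this. Named members were the 12 most abundant, those with own names, and ranks 199 to 202. Also named were up to 5 largest non-overlapping rises and falls per comparison and the 3 smallest adjusted p-values of the diet-by-day difference. Others were chosen after their values were seen, among them CR45210, CR44512, CR44754, CR43452, CR33942, CR40469 and CR31044. Alternatives were DESeq2 1.42.0, other scalings, no low-count filter, a replicate block, only the groups compared, other rankings of members, and leaving out each library. Precision rests on total counts of 19855575 to 23327826 per library.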

Additional observations from a re-analysis of the deposited data

Results flagged for a closer look

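For 30 of the members described by their level, change or name, the effect of erythritol differed between day 3 and day 4 by the test of the difference itself (edgeR's quasi-likelihood test, Benjamini-Hochberg over all genes, adjusted p between 2.49e-21 and 0.0371). Each value is the log2 fold change of T2 vs CK2 minus that of T1 vs CK1. Over all genes 78.9% passed the same test. Other members mentioned above only for their position or rank passed it too, among them CR32657 (1.88), CR43912 (1.24) and CR44214 (1.25).

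The difference was positive for lncRNAs whose mean level was higher in CK1 and T2 than in CK2 and T1. It was 2.19 for CR9284, 2.27 for CR32658, 2.13 for CR32652, 2.01 for CR32661, 2.04 for CR32690 and 2.34 for CR42850. It was 2.78 for CR45234, 2.51 for CR40465, 2.25 for CR46108 and 2.26 for CR44324, all of low level. It was 1.73 for the antisense RNA CR44370, which was high in CK1 alone, with T2 overlapping T1. It was largest for CR43453, at 3.03. For lncRNAs near 0 on erythritol, the difference was 2.33 for CR43404 and 2.55 for CR45231, and it rests on 3 counts of CR43404 and 6 of CR45231 in T1. Further positive differences were 1.98 for cherub, 1.04 for noe, 0.95 for CR45908, 0.46 for CR42862 and 0.42 for mimi.

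The difference was negative for lncRNAs that rose more on day 3 or fell more on day 4. It was −0.97 for CR31781, −1.18 for CR44138, −1.28 for CR44754 and −0.73 for bsAS among those higher on day 3. It was −2.34 for CR44651, −2.25 for CR32368, −2.28 for CR33942 and −1.09 for CR31044, not described above, which were higher on day 3 and lower on day 4 by adjusted p alone; these 4 were the only members with that pattern. It was −0.85 for CR30055, −0.64 for dntRL and −1.27 for CR43452, which were highest in CK2. Marker lists of the testis, accessory gland and ovary also differed between the 4 groups, with the sums given above, and their part in these differences was not tested.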

How the results depend on the processing

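Directions of the named members held in nearly all alternatives, and most counts moved with the threshold or the choice of members. Without the fold threshold, members higher and lower were 31 and 136 (T1 vs CK1), 104 and 55 (T2 vs CK2), 30 and 135 (CK2 vs CK1) and 83 and 20 (T2 vs T1). With members ranked on control libraries, 2 were higher on day 3, 6 on day 4, and 2 were lower in T2 than in T1. Among the members that overlap no other gene, 3 were higher and 20 lower on day 3, 5 higher on day 4, 9 lower in CK2 than in CK1, and 77 had a diet-by-day difference. Scaling by library totals gave 4 higher on day 3, 42 lower in CK2 than in CK1 and 2 higher in T2 than in T1, and sums of 3292 CPM in CK1, 1850 (1849.78) in CK2 and 2431 in T1. Upper-quartile factors gave 36 lower in CK2 than in CK1, a fit of only the groups compared gave 27, and DESeq2 called 1 higher there. Library totals moved the median log2 fold change of all genes from −0.05 to −0.30 on day 3, and upper-quartile factors to −0.18. Under these scalings CR42862 on day 3 turned to −0.193 and −0.0639, and CR30055 to −0.158 and −0.0289.

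Leaving out each library gave 7 to 11 higher and 36 to 40 lower on day 3, 12 to 17 and 19 to 26 on day 4, 2 to 3 and 14 to 26 between controls, 1 to 3 and 0 to 1 between erythritol groups, and 146 to 151 diet-by-day differences. bsAS on day 4 ranged from −0.035 to 0.22. Of 1140 leave-one-out values of named members, 1119 kept direction and call. Libraries with the same replicate number did not deviate together (r of −0.043 to 0.076, 0 of 18 pairs over 0.1), and a replicate block gave 8, 36, 13, 22, 2, 16, 1 and 0 calls and 151 differences. The causes of these moves were not tested.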

Other observations

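Host genes of small nucleolar RNAs, non-coding transcripts whose introns carry guides of ribosomal RNA modification, have symbols without the lncRNA: prefix and so lay outside the ranking. Of these, 6 were tested (Uhg1, Uhg2, Uhg3, Uhg4, Uhg5 and Uhg8). All 6 were higher in CK2 than in CK1 and lower in T2 than in CK2 by adjusted p alone (edgeR's quasi-likelihood test). Over all genes, 47.2% were higher in CK2 than in CK1 and 41.2% lower in T2 than in CK2 by that threshold. Only Uhg4 on day 4 also passed the fold threshold. Uhg4 averaged 17.8 CPM in CK1, 29.7 in CK2, 11.0 in T1 and 9.84 in T2, with a log2 fold change of −1.60 on day 4 (adjusted p = 8.42e-14). Uhg5 averaged 3.16, 7.49, 6.14 and 4.996 CPM. Against the control of the same day, its log2 fold change was 0.96 on day 3 (adjusted p = 3.04e-05) and −0.58 on day 4 (adjusted p = 0.00205). From T1 to T2 it was −0.30 (adjusted p = 0.146, edgeR). IBIN, a gene induced by infection, was detected mainly in CK2, at 2.33 ± 0.324 CPM, against 0.0697 ± 0.121 in CK1, 0.283 ± 0.195 in T1 and 0.190 ± 0.165 in T2.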
